A study of Mus musculus with 18 samples.

Results

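The 10 genes described here are naive pluripotency factors: *Klf2*, *Klf4*, *Klf5*, *Esrrb*, *Tfcp2l1*, *Tbx3*, *Prdm14*, *Zfp42*, *Nr0b1* and *Dppa3*. They were chosen by name, and each was found by its Ensembl identifier among the 54446 genes with read counts. Nascent RNA was measured in mouse embryonic stem (mES) cells of 2 genotypes, wild type (WT) and *Tet2* knockout (*Tet2*-KO, *Tet2*-/-), the gene of an enzyme that oxidizes 5-methylcytosine in DNA and RNA. Dishes of both lines received 1 mM 5-ethynyl uridine (EU), a uridine analogue that growing transcripts incorporate, for 10, 20 or 40 min. Labelled RNA was then linked to biotin, pulled down and sequenced. With 3 replicates for every genotype and EU time there were 6 groups and 18 libraries, 9 per genotype. All cells grew in serum medium with LIF, the GSK3 inhibitor CHIR99021 and the MEK inhibitor PD0325901, on gelatin after 2 passages to remove feeder cells. The study names a single line of each genotype, so line and genotype cannot be told apart, and the replicates are dishes whose p-values measure the spread between dishes only.

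Naive pluripotency is the state of the preimplantation epiblast, which mES cells keep in culture. It rests on a network of transcription factors around Oct4, Sox2 and Nanog. LIF acts through STAT3, inhibition of GSK3 relieves the repressor Tcf7l1, and inhibition of MEK removes the FGF-ERK signal that drives exit from this state. The factors below are fed by these inputs, sustain one another, and are shut down when cells move to the formative and primed states.

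Between 17931614 and 23069143 reads per library fell on genes, and between 44162 and 512186 fell on ERCC transcripts, the spike-in RNA that was added in proportion to total RNA. Levels are given in 2 ways. The share of gene reads is in CPM, the counts on a gene scaled to a common total, and it compares a gene with all others. The level per 1000 ERCC reads follows the amount of labelled RNA, which also grows with EU time. The counts cover whole gene bodies with their introns and keep the strands apart. Among 238 protein-coding genes that lie wholly inside another gene of the same strand without sharing exon bases, 237 had no read, whereas 324 of 557 inside a gene of the opposite strand had more than 50. *Tet2* itself, the targeted gene, kept its reads, with a share of 589 to 741 CPM in WT and of 530 to 643 CPM in libraries labelled *Tet2*-KO, so a count over the gene body does not check the deletion. Markers of mES cells were present: 11 of 12 listed genes passed the filter on low counts, and *Pou5f1* (Oct4) had 1438 to 2484 reads per library. The other, *Sox2*, is listed at 0 in all 18 libraries. It lies inside *Sox2ot*, which had 1828 to 3311 reads, so its 0 is no statement about expression. Summed over 14 feeder fibroblast genes, the share was 66.0 to 80.7 CPM in the 3 WT libraries at 10 min and 23.7 to 47.2 CPM in the other 15. Of these 14 genes 9 passed the filter on low counts, while *Lum* and *Dcn* had at most 1 and 6 reads.

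Promoter sequences of 6 of the 10 genes were found in a RefSeq table for GRCm38.p6, with 7 promoters of 300 bases between them; *Klf5*, *Tbx3*, *Prdm14* and *Dppa3* were not matched. Stretches upstream of 3 starts are shown because they belong to the gene with the largest fall, to the one with the most reads in WT, and to the one that carried a STAT motif. Zfp42 is at chr8:43307050-43307209 on the minus strand, Tfcp2l1 at chr1:118627845-118627944 on the plus strand, and Esrrb at chr12:86360877-86360976 on the plus strand. Capitals mark the motifs found: the KLF motif GGGNGTG (read here on its other strand, CACNCCC), the STAT motif TTCNNNGAA and the octamer ATTTGCAT.
Zfp42: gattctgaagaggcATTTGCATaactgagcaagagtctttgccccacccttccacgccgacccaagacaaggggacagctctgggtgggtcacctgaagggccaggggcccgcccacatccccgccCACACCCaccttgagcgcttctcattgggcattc
Tfcp2l1: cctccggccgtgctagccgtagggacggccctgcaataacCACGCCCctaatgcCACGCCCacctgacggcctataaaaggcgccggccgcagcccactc
Esrrb: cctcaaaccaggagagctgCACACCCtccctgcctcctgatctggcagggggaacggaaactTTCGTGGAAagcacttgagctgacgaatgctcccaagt
On either strand, the KLF motif lay in 4 of the 7 promoters, those of *Zfp42*, *Tfcp2l1* (2 copies), *Esrrb* and *Nr0b1*, and in 29.2% of 32851 promoters in the table. The STAT motif lay in that of *Esrrb* only, and in 8.30% of all. The ESRRB motif AAGGTCA (4.72% of all) and the TFCP2L1 motif, a pair of CCAG with 6 bases between them (3.44%), were in none of the 7 windows. The octamer, searched after the sequences were seen, was in the *Zfp42* promoter and in 1.74% of all. No searched motif overlapped another in these windows. A match of letters is a description and not a bound site.

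Because the counts include introns, levels were compared between genes per kb of gene body. In WT, *Zfp42* was highest, with a median of 44.8 CPM per kb over 9 libraries (43.6 to 47.6 CPM per kb). It was followed by *Klf4* (median 27.4), *Klf5* (24.5) and *Klf2* (21.3), whose ranges overlapped from one to the next. Next came *Tfcp2l1* (17.6) and *Tbx3* (17.04), which overlapped each other as well. *Esrrb* (5.11), *Nr0b1* (4.15), *Prdm14* (1.74) and *Dppa3* (0.741) were lower, each without overlap with its neighbours in that order. In *Tet2*-KO, *Tbx3* (median 21.2, range 19.5 to 22.2) and *Klf5* (21.02) overlapped at the top, and *Zfp42* was in the sixth place with a median of 9.70 CPM per kb (8.61 to 10.3). The last 4 places were the same as in WT. This order depends on the divisor. Per kb of exon at 10 min in WT, *Zfp42* led (mean 282), and *Esrrb* (129) and *Tfcp2l1* (112) came before *Klf5* (62.7) and *Klf4* (46.9). In *Tet2*-KO at 10 min *Esrrb* (126) was above *Tfcp2l1* (82.1), *Klf5* (66.8) and *Zfp42* (55.7). Over 11441 protein-coding genes, log2 share had r = 0.35 with log2 exon bases and 0.30 with log2 span. *Dppa3* rests on 14 to 89 reads per library, *Nr0b1* on 217 to 414 and *Prdm14* on 320 to 767, while the other 7 had at least 638.

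The summed share of the 10 factors was lower in *Tet2*-KO than in WT, and most of the difference came from *Zfp42* and *Tfcp2l1*. The sum was 3160 to 3343 CPM in WT (mean 3226 ± 81.5, SD, n = 9) and 2383 to 2469 CPM in *Tet2*-KO (mean 2434 ± 35.6), and the ranges did not overlap. Of the mean difference, *Zfp42* made up -426 CPM and *Tfcp2l1* -277 CPM. Without *Zfp42* the sum was still apart, at 2624 to 2775 CPM in WT and 2272 to 2365 CPM in *Tet2*-KO. Without both, the sum of the other 8 overlapped over all EU times, at 1573 to 1783 CPM in WT (mean 1698 ± 93.6) and 1570.4 to 1645 CPM in *Tet2*-KO (mean 1608 ± 24.2). These ranges and SDs pool the EU times. At 20 min and at 40 min taken alone, this sum was lower in *Tet2*-KO without overlap, and only at 10 min did it overlap.

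**Figure D1:**
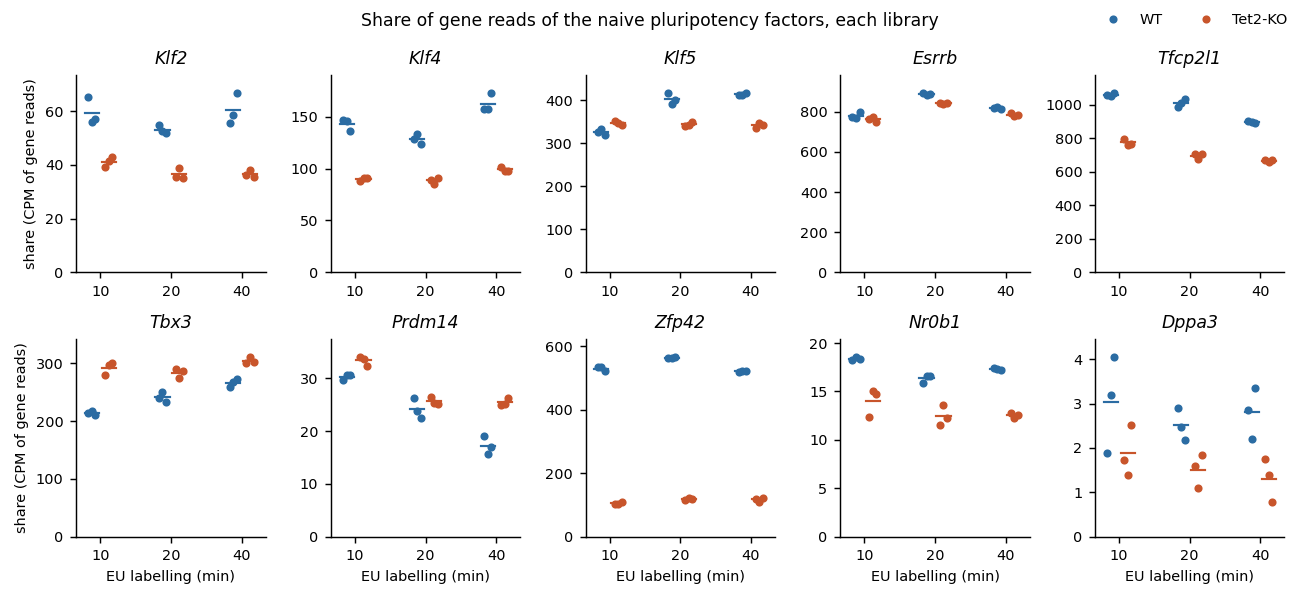
Share of gene reads (CPM, axes from 0) of each of the 10 genes against EU time, with 1 point per library and a line at the mean of the 3 replicates, WT in blue and *Tet2*-KO in orange. *Zfp42* sits at 519.8 to 568 CPM in WT and at 103 to 122 CPM in *Tet2*-KO, while *Esrrb* lies close together in both.

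The first comparison asked how each factor differed between genotypes, averaged over the 3 EU times and tested by edgeR's quasi-likelihood test over 19910 genes with Benjamini-Hochberg adjustment at 0.05. As a share of gene reads, 8 factors were lower in *Tet2*-KO (32% of all genes tested were lower) and 2, *Tbx3* and *Prdm14*, were higher (24.6% of all). The median log2 fold change was -0.45 for the factors and -0.037 for all genes. Per ERCC read, 7 factors were higher (80.5% of all), only *Zfp42* was lower (4.15% of all), and *Klf4* and *Dppa3* did not pass the test. On that scale the median was 0.29 for the factors and 0.70 for all genes. Within a library, the scales differ by the same factor for every gene. An error in a library's ERCC total would therefore shift all its genes alike, while edgeR's test pools the spread over genes. The size of very small p-values per ERCC read should thus not be read as a measure of the spread between dishes.

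**Figure D2:**
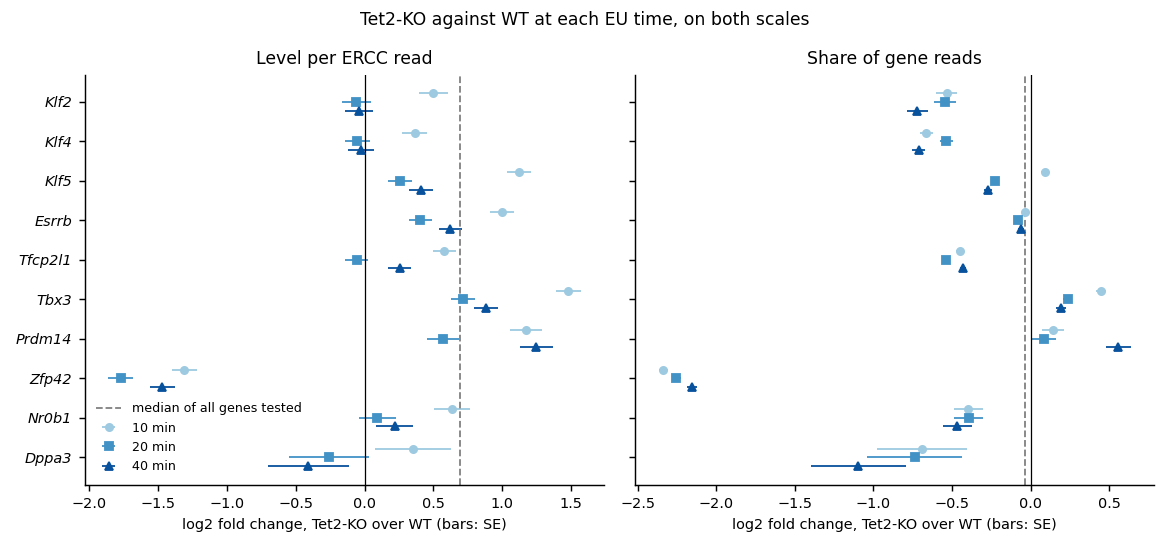
Log2 fold change of *Tet2*-KO over WT for each factor at 10, 20 and 40 min of EU, per ERCC read (left) and as share of gene reads (right), with bars of 1 SE and a dashed line at the median of all genes tested for the mean of the 3 times (0.70 and -0.037). *Zfp42* lies below -1.3 on both scales at every time, and *Tbx3* is the only factor to the right of the dashed line at all 3 times on both scales. This holds for the fixed line only. The median at 20 min per ERCC read was 0.45, and *Prdm14* (0.57) lay above it.

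*Zfp42* (Rex1), a zinc-finger gene that is switched off as cells leave the naive state, had the largest fall. It spans chr8:43295063-43306980 on the minus strand. Its share in WT was 534, 536 and 521 CPM at 10 min, 564, 563 and 568 CPM at 20 min and 519.8, 522 and 523 CPM at 40 min. In *Tet2*-KO it was 104, 103 and 108 CPM, 116, 122 and 117 CPM and 119, 110.4 and 122 CPM at these times. Every *Tet2*-KO library was thus far below every WT library, and replicates differed little. The share fell by 2.25 on the log2 scale (SE 0.017, edgeR adjusted p = 7.12e-41), a 4.76-fold lower level, and 199 of the 19910 genes had a lower value. Per ERCC read it fell by 1.52 (SE 0.052, adjusted p = 6.34e-104), against a median rise of 0.70 for all genes. With 10658 to 12190 reads in WT and 1850 to 2361 in *Tet2*-KO, counting error was small.

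The reads of *Zfp42* can be split with a processed copy, and the genes around it were examined after its values were seen. *Zfp42-ps1*, a retrocopy at chr15:93679200-93679600, had 313 to 504 reads in WT (3489 in the 9 libraries), which is 2.74 to 4.32% of the *Zfp42* reads of the same library. It had 0 to 4 reads in *Tet2*-KO, 15 in all. Reads of the retrocopy were thus nearly limited to the WT line. Within 500 kb of *Zfp42*, the protein-coding genes *Triml2*, *Triml1* and *Adam34* passed the filter, and *Adam26a* had at most 1 read. The share of *Triml2*, 101 kb away, fell by 0.49 (SE 0.022, adjusted p = 1.36e-19) and that of *Triml1*, 154 kb away, fell by 0.38 (SE 0.028, adjusted p = 6.50e-14). *Gm6284*, a pseudogene that lies between these on the same side, 131 kb away, rose by 0.71 (SE 0.22, adjusted p = 0.00686) on 6 to 42 reads per library. *Adam34*, 343 kb away on the other side, rose by 1.36 (SE 0.34) from 3 to 9 reads in WT to 6 to 16 in *Tet2*-KO. In share, the 2 neighbours with at least 912 reads in every library thus fell, and the 2 with at most 42 reads rose. Per ERCC read, *Triml2* rose by 0.25 (edgeR adjusted p = 4.36e-06) and *Triml1* by 0.35 (edgeR adjusted p = 1.66e-09). *Gm6284* (1.43) and *Adam34* (2.07) rose on that scale too, beside a median of 0.70 for all genes.

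**Figure D3:**
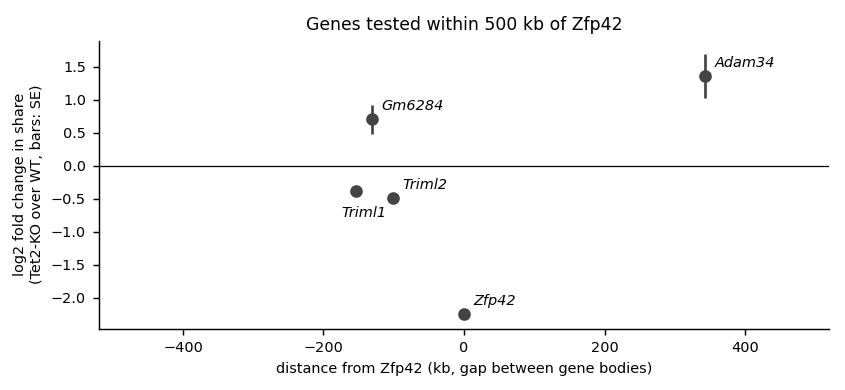
Log2 fold change in share (*Tet2*-KO over WT, mean of 3 EU times, bars of 1 SE) of the genes tested within 500 kb of *Zfp42*, against their distance from it in kb. *Triml2* (-0.49) and *Triml1* (-0.38) lie below 0, and *Adam34* (1.36) and the pseudogene *Gm6284* (0.71), both with at most 42 reads, lie above it.

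Of the factors fed by LIF and STAT3, *Klf4* and *Tfcp2l1* fell in share and *Tbx3* rose. *Klf4*, a zinc-finger factor induced by STAT3 that is also used in reprogramming, spans chr4:55527143-55532466 on the minus strand. In WT its share was 147, 146 and 137 CPM at 10 min, 128, 133 and 124 CPM at 20 min and 158, 157 and 173 CPM at 40 min. In *Tet2*-KO it was 88.5, 90.9 and 91.4 CPM, 89.4, 85.3 and 91.3 CPM and 102, 98 and 97.9 CPM. The highest *Tet2*-KO library was below the lowest WT library, and the fall over all times was 0.64 (log2, SE 0.024, edgeR adjusted p = 9.80e-22). Per ERCC read *Klf4* was higher in *Tet2*-KO at 10 min, with 6.82, 7.42 and 5.85 reads per 1000 ERCC reads in WT and 8.49, 8.15 and 9.21 in *Tet2*-KO (log2 0.36, SE 0.092, adjusted p = 1.34e-04). The genotypes overlapped at 20 min (-0.053, SE 0.092) and at 40 min (-0.026, SE 0.091), where the levels were 38.4, 40.6 and 41.5 in WT and 43.7, 35.9 and 38.8 in *Tet2*-KO. Over the 3 times the log2 fold change on that scale was 0.095 (SE 0.053, adjusted p = 0.0846). Without WT 10 min replicate 2, WT 20 min replicate 2 or *Tet2*-KO 40 min replicate 2 it passed the test, at 0.12 each time.

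*Tfcp2l1*, a Grainyhead-like factor that acts downstream of STAT3, had the most reads of the factors in WT and spans chr1:118627945-118685168 on the plus strand. Its share in WT was 1056, 1051 and 1073 CPM at 10 min, 989.5, 1008 and 1034 CPM at 20 min and 905, 897 and 889 CPM at 40 min. In *Tet2*-KO it was 794, 762 and 769 CPM, 705, 676 and 703 CPM and 668, 657 and 673 CPM. Both genotypes declined with EU time, and *Tet2*-KO was below WT throughout. The share fell by 0.47 (log2, SE 0.012, edgeR adjusted p = 3.45e-26), and the level per ERCC read rose by 0.26 (SE 0.049, adjusted p = 2.37e-07). Per ERCC read the genotypes overlapped at 20 min (-0.056, SE 0.084) and were apart at 10 min (0.58) and 40 min (0.26).

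*Tbx3*, a T-box factor that LIF keeps active through PI3K and that promotes *Nanog*, spans chr5:119670669-119684724 on the plus strand. The share in WT was 214, 218 and 211 CPM at 10 min, 239.5, 249.9 and 233 CPM at 20 min and 259, 268 and 273 CPM at 40 min. In *Tet2*-KO it was 279.6, 298 and 301 CPM, 289.8, 274 and 287 CPM and 301, 312 and 302 CPM. All 9 *Tet2*-KO libraries exceeded all 9 WT libraries. The share rose by 0.29 (log2, SE 0.018, edgeR adjusted p = 7.31e-16) and the level per ERCC read by 1.03 (SE 0.051, adjusted p = 9.03e-64), a 2.04-fold higher level. Its antisense gene *Tbx3os1*, which shares 115 exon bases with it, had 1160 to 2040 reads and was counted apart by strand.

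Other genes of the LIF pathway fell or did not pass the test. Of 9 listed genes, 7 fell in share (32% of all genes did), none rose (24.6% of all) and 2 did not pass, with a median of -0.19 beside -0.037 for all genes. The lowest were *Junb*, an AP-1 gene, at -1.29 (SE 0.073), and *Il6st*, which encodes the shared receptor subunit gp130, at -0.72 (SE 0.019). *Stat3* fell by 0.41 and *Socs3*, the feedback inhibitor of the pathway, by 0.51. *Pim1*, a kinase gene that STAT3 induces, fell by 0.14, and *Lifr*, the LIF receptor, by 0.069. Per ERCC read, 7 of the 9 rose, where 80.5% of all genes did, *Junb* fell by 0.56, and *Il6st* was at 0.012 (adjusted p = 0.831).

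*Klf2* and *Klf5*, zinc-finger factors that with *Klf4* can stand in for one another in self-renewal, both fell in share. *Klf2*, which MEK-ERK signalling turns over, spans chr8:72319033-72321656 on the plus strand. Its share was 51.9 to 66.9 CPM in WT (median 55.9) and 35.2 to 42.9 CPM in *Tet2*-KO (median 38.2), without overlap. It fell by 0.60 (log2, SE 0.039, edgeR adjusted p = 3.95e-15), almost as much as *Klf4*. Per ERCC read it was higher by 0.13 (SE 0.060, adjusted p = 0.0292). That call was lost with DESeq2 (adjusted p = 0.0808) and with TMM over the ERCC transcripts (0.0717). It was also lost when any of 6 libraries was left out, with adjusted p from 0.0595 to 0.100: WT 10 min replicate 3, WT 20 min replicate 3, WT 40 min replicate 1, *Tet2*-KO 10 min replicate 3, *Tet2*-KO 20 min replicate 2 and *Tet2*-KO 40 min replicate 1. At 10 min it was higher per ERCC read by 0.50, and at 20 and 40 min the values were -0.058 (adjusted p = 0.650) and -0.038 (0.749).

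*Klf5*, which spans chr14:99298691-99315036 on the plus strand, changed its order between the genotypes with EU time. In WT its share was 325, 334 and 319 CPM at 10 min, 418, 391 and 400.4 CPM at 20 min and 412, 412 and 417 CPM at 40 min. In *Tet2*-KO it was 351, 348 and 344 CPM, 339.6, 342 and 349.8 CPM and 337, 348 and 343 CPM. WT rose after 10 min while *Tet2*-KO stayed within 336.7 to 351 CPM, so that *Tet2*-KO was above WT at 10 min and below it at 20 and 40 min, each time without overlap. The difference was 0.092 at 10 min (SE 0.025, edgeR adjusted p = 0.00353), -0.23 at 20 min and -0.27 at 40 min (SE 0.025, adjusted p = 7.41e-11). Averaged over the times the share fell by 0.14 (SE 0.015), and the level per ERCC read rose by 0.60 (SE 0.050, adjusted p = 2.87e-28).

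The rest of the KLF family moved both ways. Of 13 of 14 other KLF genes that passed the filter, 4 rose (24.6% of all genes did), 7 fell (32%) and 2 did not pass the test. Their median was -0.19 in share. *Klf6* fell by 1.13 (SE 0.060) and *Klf7* by 0.97 (SE 0.027), beside 0.64 for *Klf4* and 0.60 for *Klf2*. *Klf1* rose by 0.64 (SE 0.20) on 6 to 39 reads per library, and *Klf12* rose by 0.15 (SE 0.020).

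*Esrrb*, an orphan nuclear receptor that Tcf7l1 represses and that inhibition of GSK3 releases, hardly differed in share. It spans chr12:86361117-86521628 on the plus strand. Its share was 767 to 896 CPM in WT (median 819.8) and 750.4 to 842 CPM in *Tet2*-KO (median 783), and the ranges overlapped. The fall of 0.058 (log2, SE 0.011) passed edgeR's test (adjusted p = 2.71e-05) and did not pass with TMM (-0.018, adjusted p = 0.169) or DESeq2 (-0.023, adjusted p = 0.0740). Per ERCC read it rose by 0.68 (SE 0.049, adjusted p = 5.32e-36), close to the median of all genes, 0.70. At 40 min the levels were 199, 213 and 195 reads per 1000 ERCC reads in WT and 340.3, 286 and 311 in *Tet2*-KO. *Tcf7l1* rose in share by 0.50 (SE 0.012, adjusted p = 2.22e-27). Of the 10 listed genes of the Wnt-GSK3 pathway 5 rose (24.6% of all genes did), 3 fell (32%) and 2 did not pass. Those that fell included *Axin2* (-0.88, SE 0.038), a target gene of the pathway, and *Lef1* (-0.70, SE 0.085), and *Tcf7*, which rose, was at 0.26.

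*Prdm14*, which represses FGF receptor signalling and DNA methyltransferase genes in naive cells, rose in *Tet2*-KO and declined with EU time in both genotypes. It spans chr1:13113457-13127163 on the minus strand. Its share in WT was 29.6, 30.6 and 30.6 CPM at 10 min, 26.3, 23.9 and 22.4 CPM at 20 min and 19, 15.7 and 17 CPM at 40 min. In *Tet2*-KO it was 34.1, 33.7 and 32.3 CPM, 26.5, 25.4 and 25.1 CPM and 25, 25.2 and 26.3 CPM. The genotypes were apart at 10 and 40 min and overlapped at 20 min. Over the 3 times the share rose by 0.26 (log2, SE 0.044, edgeR adjusted p = 4.17e-06). By time the difference was 0.14 (adjusted p = 0.109), 0.086 (0.412) and 0.56 (SE 0.078, adjusted p = 4.32e-07). At 10 min it was 0.21 and passed with DESeq2 (adjusted p = 0.0145) and with TMM (0.0165). Per ERCC read *Prdm14* rose by 1.00 (SE 0.067, adjusted p = 7.56e-40) and, at 40 min, by 1.25.

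The genes on which *Prdm14* is known to act, and the formative genes, did not move one way. *Dnmt3b* rose in share by 0.63 (SE 0.036, adjusted p = 1.24e-16) and *Dnmt3a* by 0.28 (SE 0.035), while *Fgfr1* was at 0.086 and *Fgfr2* at -0.063, both past the test. Of 11 of 14 formative and primed genes tested, 4 rose (24.6% of all genes did), 4 fell (32%) and 3 did not pass. *Otx2*, a driver of the formative state, rose by 2.17 (SE 0.11) from a median of 1.32 CPM in WT to 6.19 CPM in *Tet2*-KO, and *Dkk1* rose by 0.79 on 2 to 21 reads. *Fgf5* (-1.60, SE 0.53) and *Wnt8a* (-1.11, SE 0.35) fell, on at most 20 and 33 reads per library. Of 13 genes of the FGF-ERK pathway, 3 rose (24.6% of all genes did), 6 fell (32%) and 4 did not pass. The immediate early gene *Egr1* fell by 3.57 (SE 0.092) and the feedback inhibitor *Spry4* by 1.55 (SE 0.047), while *Map2k1*, which encodes a kinase that PD0325901 inhibits, rose by 0.32 and *Fgf4* by 0.13.

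*Nr0b1* (Dax1), an orphan receptor without DNA-binding zinc fingers that binds Oct4, fell in share. It spans chrX:86191764-86195947 on the plus strand. Its share was 15.9 to 18.6 CPM in WT (median 17.4) and 11.5 to 15.1 CPM in *Tet2*-KO (median 12.6), without overlap. It fell by 0.42 (log2, SE 0.054, edgeR adjusted p = 4.60e-08) and rose by 0.32 per ERCC read (SE 0.077, adjusted p = 7.53e-05). On that scale the rise passed at 10 min (0.64) and not at 20 min (0.093, adjusted p = 0.573) or 40 min (0.22, adjusted p = 0.133).

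*Dppa3* (Stella), a maternal factor that protects methylation marks and is on in a fraction of naive cells, was the least abundant factor. In bulk RNA, fewer cells with a transcript and less of it per cell cannot be told apart. It spans chr6:122626410-122630272 on the plus strand. Its share was 1.88 to 4.06 CPM in WT (median 2.86) and 0.781 to 2.52 CPM in *Tet2*-KO (median 1.59), with overlap. The fall of 0.84 (log2, SE 0.17, edgeR adjusted p = 8.34e-05) was the second largest of the 10 and the least precise. Per ERCC read it was at -0.10 (SE 0.17, adjusted p = 0.555). At 10 min its share passed the test narrowly (-0.69, adjusted p = 0.0474). It did not pass with DESeq2 (adjusted p = 0.0928), with TMM (0.0765) or with only the 6 libraries of that time (0.102). Without WT 10 min replicate 3 it was at -0.43 (adjusted p = 0.271), and without several other libraries it did not pass either. At 20 min it did not pass (-0.74, adjusted p = 0.0526), although it did with only the 6 libraries of that time (0.0220) and with some other alternatives. At 40 min it fell by 1.097 (adjusted p = 0.00400).

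At each EU time alone, the split between lower and higher shares was alike. At 10 min, 6 factors were lower (27.1% of all genes) and 2, *Tbx3* and *Klf5*, were higher (17.9%). *Esrrb* and *Prdm14* were not called, although *Prdm14* was called with DESeq2 and TMM. *Dppa3*, among the 6, was not called with either. At 20 min, 7 were lower (20.7%) and *Tbx3* was higher (17.6%). At 40 min, 8 were lower (19.6%), and *Tbx3* and *Prdm14* were higher (18.9%). Per ERCC read, 8 were higher at 10 min (79%), 4 at 20 min (53.7%) and 5 at 40 min (68.2%), and only *Zfp42* was lower at each time (2.1%, 4.86% and 2.84%). The fibroblast sum was apart between the genotypes at 10 min, with 66.0 to 80.7 CPM in WT and 33.3 to 34.7 CPM in *Tet2*-KO. It was apart in the opposite direction at 20 min, with 32.1 to 34.2 CPM in WT and 46.3 to 47.2 CPM in *Tet2*-KO, and overlapped at 40 min. Its part in these values was not tested.

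The second comparison asked whether a factor's share of the labelled RNA changed between 10 and 40 min of EU within a genotype. In WT, *Klf5* (0.34, SE 0.025), *Tbx3* (0.31), *Klf4* (0.19) and *Esrrb* (0.072) rose, which is 4 of 10 (16.1% of all genes). *Prdm14* (-0.81, SE 0.076) and *Tfcp2l1* (-0.24) fell (29.5% of all). In *Tet2*-KO, *Zfp42* (0.16, SE 0.032) and *Klf4* (0.14) rose (16.5% of all), and *Prdm14* (-0.39, SE 0.074) and *Tfcp2l1* (-0.22) fell (20%). Without *Tet2*-KO 40 min replicate 1, the rise of *Klf4* in *Tet2*-KO did not pass (0.12, edgeR adjusted p = 0.0583), and 1 factor was left as higher. *Prdm14* and *Tfcp2l1* thus lost share and *Klf4* gained it in both lines.

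The change in the genotype difference from 10 to 40 min was tested directly and passed for 4 factors. *Klf5* (-0.36, SE 0.036, edgeR adjusted p = 2.22e-08) and *Tbx3* (-0.25, SE 0.044, adjusted p = 1.52e-04) moved down (3.36% of all genes did), and *Prdm14* (0.42, SE 0.11, adjusted p = 0.00979) and *Zfp42* (0.18, SE 0.041, adjusted p = 0.00370) moved up (5.89%). For *Zfp42* the change did not pass with TMM (0.13, adjusted p = 0.0562) or DESeq2 (0.12, adjusted p = 0.0526). *Esrrb*, at -0.029 and not called, passed with both, at -0.087 (TMM, adjusted p = 0.0360) and -0.094 (DESeq2, adjusted p = 0.00883). The fibroblast sum differs between the WT libraries at 10 and 40 min, and its part in these changes was not tested.

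The third comparison followed the study's approach to transcription rate, the slope of a spike-in-calibrated level on EU time. The calibration differed: the study turned CPM into attomole with a linear fit to the ERCC transcripts. Here the slope is in reads per 1000 ERCC reads per min. For *Zfp42* the slope was 3.30 (SE 0.35, n = 9) in WT and 1.204 (SE 0.091, n = 9) in *Tet2*-KO, a ratio of 0.365. The slope of *Prdm14* was 0.0859 (SE 0.018) in WT and 0.232 (SE 0.012) in *Tet2*-KO, a ratio of 2.71. That of *Tbx3* was 1.81 (SE 0.12) and 3.11 (SE 0.12), a ratio of 1.72. *Esrrb* followed with a ratio of 1.49, *Klf5* with 1.22, *Tfcp2l1* with 1.16 and *Nr0b1* with 1.09. The slopes of *Klf4* (0.933), *Klf2* (0.888) and *Dppa3* (0.626) were smaller in *Tet2*-KO. So 6 of the 10 slopes were larger in *Tet2*-KO, beside 86.8% of all 19910 genes, and the median ratio was 1.55 over the 19793 genes with a WT slope above 0. In an exact two-sided permutation test over 8000 exchanges of the genotype labels within EU times, p ranged from 0.100 for *Zfp42* to 0.548 for *Nr0b1*. For *Zfp42* the exchanges at least as extreme as the real labels were the 800 that keep or mirror the labels at 40 min. All 800 were also at least as extreme for *Klf5*, *Esrrb*, *Tbx3* and *Prdm14*. For these factors and *Zfp42*, p was thus at least 0.100 however large the difference at 40 min. The test therefore cannot decide whether their slopes differ, and no conclusion is drawn from it.

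**Figure D4:**
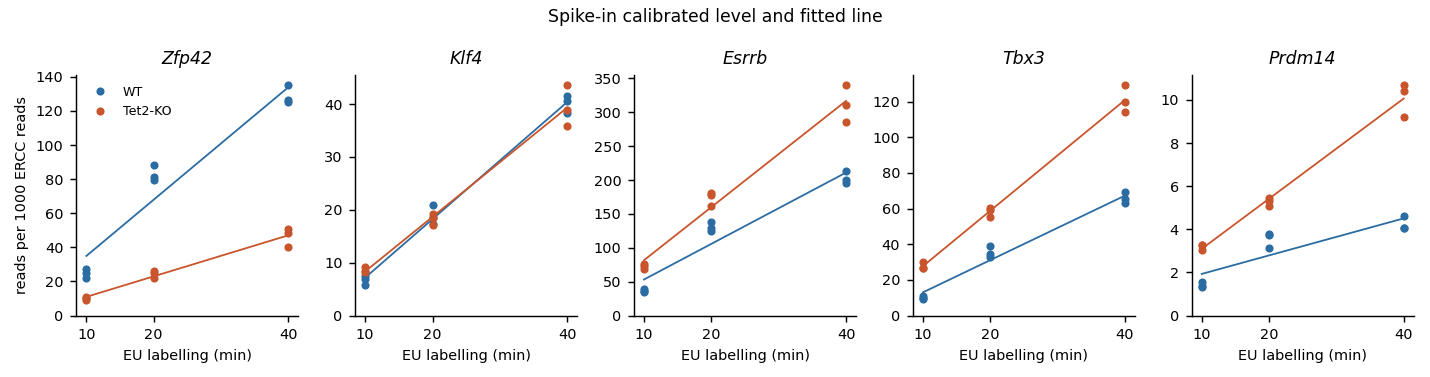
Level in reads per 1000 ERCC reads (axes from 0) of 5 factors against EU time in min, with 1 point per library and the least-squares line of each genotype, WT in blue and *Tet2*-KO in orange. The lines of *Klf4* lie close together and cross, with slopes of 1.11 in WT and 1.03 in *Tet2*-KO. That of *Zfp42* is flatter in *Tet2*-KO, and those of *Esrrb*, *Tbx3* and *Prdm14* are steeper.

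The line was not equally good for all factors. The WT level of *Prdm14* rose by 0.215 per min from 10 to 20 min and by 0.0343 per min from 20 to 40 min, whereas in *Tet2*-KO the rises were 0.210 and 0.242. For *Zfp42* in WT they were 5.84 and 2.29, and for *Esrrb* in WT 9.45 and 3.58. With 10 and 20 min alone, only 2 of the 10 slopes were larger in *Tet2*-KO (59.7% of all genes), since those of *Klf5*, *Tfcp2l1*, *Prdm14* and *Nr0b1* changed sides. The order of slopes therefore depends on which times enter. With a line forced through the origin, in which the level at each time counts as well as the rise, the ratio was 0.347 for *Zfp42*, 2.12 for *Prdm14*, 1.83 for *Tbx3*, 1.505 for *Esrrb*, 1.32 for *Klf5*, 1.16 for *Nr0b1* and 1.15 for *Tfcp2l1*. These 7 then passed the exact permutation test at 0.05, and *Klf2*, *Klf4* and *Dppa3* did not. How many of all genes pass with this line was not computed. Of the 7, only *Zfp42* had a ratio below 1. By edgeR's test per ERCC read, which is a different test, 80.5% of all genes were higher in *Tet2*-KO over the EU times and 4.15% were lower. Whether the count of 7 is particular to these factors was therefore not tested.

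Partner genes of the naive network moved both ways. Of 16 of 17 core and partner genes tested, 4 rose in share (24.6% of all genes), 9 fell (32%) and 3 did not pass, with a median of -0.099. *Sall4* rose by 0.33 (SE 0.034), *Utf1* by 0.25 and *Pou5f1* by 0.16, while *Nanog* fell by 0.12 (SE 0.015). *Gbx2* (-1.09, SE 0.14) and *Tdgf1*, the Nodal co-receptor (-0.78, SE 0.017), fell most in share. Per ERCC read, 13 of the 16 rose (80.5% of all genes did), among them *Nanog* (0.61). *Gbx2* fell (4.15% of all), and 2 did not pass, *Tdgf1* (-0.046) among them. Among the 12 mES cell markers, 3 of the 11 tested rose in share and 8 fell, *Epcam*, a surface adhesion protein, by 1.87 (SE 0.067). Per ERCC read, 8 of these markers rose, 1 fell and 2 did not pass.

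Lists of markers of other cell types were counted in the same way, beside 24.6% of all genes that rose in share and 32% that fell. Of 9 fibroblast genes tested, 2 rose, 2 fell and 5 did not pass, and the summed share was 23.7 to 80.7 CPM in WT and 24.4 to 47.2 CPM in *Tet2*-KO over all times, which overlapped, although the genotypes were apart at 10 and 20 min as given above. *Pdgfrb* fell by 1.57 (SE 0.11) and *Tagln* by 0.59, while *Col3a1* rose by 1.05 and *Col1a1* by 0.40. Of 7 primitive endoderm genes 1 rose, *Col4a1* (0.26), and 2 fell, *Gata4* (-0.42) and *Lama1* (-0.090). The summed share of the 9 listed endoderm genes was 228 to 292 CPM in WT and 213 to 290 CPM in *Tet2*-KO, although *Sox17* and *Foxa2* had at most 7 reads. Of 6 trophectoderm genes *Gata3* rose by 1.49 (SE 0.093) and *Eomes* fell by 0.66, and *Cdx2* had at most 5 reads. The summed share of the 8 listed trophectoderm genes was 26.1 to 31.5 CPM in WT and 28.5 to 33.9 CPM in *Tet2*-KO. In the list of the 2-cell-like state, 5 of 6 tested genes fell, with a median of -2.86, from *Zfp352* (-3.48, SE 0.45) and *Zscan4d* (-2.95, SE 0.14) to *Zscan4c* (-2.81, SE 0.10) and *Usp17la* (-2.02, SE 0.23). Its summed share, most of it *Eif1a*, was 208 to 261 CPM in WT and 203 to 221 CPM in *Tet2*-KO. The *Zscan4* genes are near-identical copies, so their reads cannot be assigned with certainty. The fall of *Zfp42* (-2.25) and that of *Dppa3* (-0.84) thus stood beside falls of this list, and its part in them was not tested.

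For each factor the protein-coding gene with the most similar share over the 18 libraries was looked up by Pearson's r of log2 shares. Because the libraries form 2 genotype clusters that share depth and EU time, r within each genotype (9 libraries) is given beside it. *Prdm14* was most like *Dnmt3a* (r = 0.972, within WT 0.984 and within *Tet2*-KO 0.927), and *Tfcp2l1* most like *Mcf2l* (0.992, within 0.975 and 0.938). *Esrrb* was closest to *Secisbp2* (0.892, within 0.932 and 0.851) and *Dppa3* to *Fat3* (0.868, within 0.771 and 0.700). These 4 pairs also had high r inside each genotype. The partners were picked by the highest r over these same libraries, so the values within a genotype are no separate check. *Klf2* with *Epas1* (0.971) and *Nr0b1* with *Calca* (0.968) had lower values within WT, 0.658 and 0.601. The pairs of *Klf4* with *Tspan14* (0.971), *Klf5* with *Ap2a1* (0.875) and *Tbx3* with *Usp34* (0.964) held within WT (0.924, 0.955 and 0.954) and not within *Tet2*-KO (-0.028, -0.56 and 0.33). *Zfp42* and *5730507C01Rik* (0.997) were at -0.37 within WT, so their likeness is that of the genotype difference, as *5730507C01Rik* had medians of 43.6 CPM in WT and 6.51 CPM in *Tet2*-KO.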

How the data were processed

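Nascent RNA was measured in 9 WT and 9 *Tet2*-KO libraries of mES cells. Per the submitters' processing notes and the study's methods, the authors trimmed reads with Trimmomatic 0.39, aligned them with HISAT2 2.2.1 to mm10 with GENCODE M19 and the ERCC sequences, and counted them per gene with HTSeq 0.12.4. The deposited counts are not normalized. The feature type and strand setting are not given in the sources used here, and were settled from nested genes. Rows that name no gene held 20.9 to 24.9% of reads and were left out. Of 54446 identifiers, 54409 were found in GENCODE M21.

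Total gene reads (share) or total reads on the 92 ERCC transcripts (level) served as library sizes in edgeR 4.0.16 (R 4.3.3). One quasi-likelihood fit had 6 groups, and filterByExpr kept 19910 genes. SEs are the absolute log2 fold change over the square root of F. Slopes are least-squares lines with an intercept. DESeq2 1.42.0, TMM, other totals and filters, a replicate block, each EU time alone, other lines and each library left out were alternatives, and the code was tested on simulated data. No pair of replicates agreed within sampling noise. Depth limits only low genes, and counting intervals would cover counting error only.

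The 10 factors and the gene lists were chosen with earlier results of these data known. From each list, the called genes with the 2 highest and 2 lowest changes in share are named; *Stat3*, *Socs3*, *Nanog*, *Pou5f1*, *Fgfr1*, *Fgfr2* and *Dnmt3a*, and markers with few reads, were added for their roles, and the neighbours and retrocopy of *Zfp42* and the octamer after values were seen. The most similar gene is the one with the highest r.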

Additional observations from a re-analysis of the deposited data

Results flagged for a closer look

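For 4 factors the difference between *Tet2*-KO and WT in log2 share was not the same at 40 min as at 10 min, by edgeR's test of the change itself: *Klf5* (-0.36), *Tbx3* (-0.25), *Prdm14* (0.42) and *Zfp42* (0.18). For *Klf5* the sign of the difference turned, from 0.092 at 10 min to -0.27 at 40 min. For *Tbx3* the rise shrank from 0.45 to 0.20, for *Prdm14* it grew from 0.14 to 0.56, and for *Zfp42* the fall shrank from -2.34 to -2.16. The 3 WT libraries at 10 min were also those with the highest sum of fibroblast genes, 66.0 to 80.7 CPM, and its part was not tested.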

How the results depend on the processing

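The counts of factors higher or lower kept within 1.5 times of their values under all alternatives run, except for these. With DESeq2 and with TMM, 1 factor rather than 2 moved up from 10 to 40 min in the genotype difference, and 4 rather than 2 rose in *Tet2*-KO from 10 to 40 min (*Esrrb* and *Tbx3* in addition); with a library left out the latter count ranged from 1 (without *Tet2*-KO 40 min replicate 1) to 3. With 10 and 20 min only, 2 rather than 6 slopes were larger in *Tet2*-KO, the ratio being 0.857 for *Klf5*, 0.696 for *Tfcp2l1*, 0.975 for *Prdm14* and 0.796 for *Nr0b1*; with 20 and 40 min only it was 1.00 for *Klf4*. The log2 values that changed sign were not called in the main fit, and only *Zfp42* in WT over time was called after the change. With DESeq2 and TMM, in that order, *Esrrb* at 10 min became 0.038 and 0.038, *Tfcp2l1* in the change of the difference -0.044 and -0.036, *Klf5* in *Tet2*-KO over time 0.013 and 0.023, *Nr0b1* in WT over time 0.011 and 0.014, and *Zfp42* in WT over time 0.074 (adjusted p = 0.0171) and 0.077 (adjusted p = 0.0212). With each library left out in turn, the level per ERCC read at 20 min ranged from -0.14 to 0.012 for *Klf2*, from -0.11 to 0.022 for *Klf4* and from -0.0077 to 0.20 for *Nr0b1*; at 40 min it ranged from -0.10 to 0.017 for *Klf2* and from -0.10 to 0.039 for *Klf4*; the share in WT over time ranged from -0.055 to 0.097 for *Klf2* and from -0.37 to 0.15 for *Dppa3*. For all these changes of sign, other than where an alternative's own construction (fewer EU times or libraries) shows it, the cause was not tested. Replicate numbers did not pair the samples: over 45 pairs with the same number in different groups, the correlation of deviations from the group means ran from -0.0915 to 0.0901. A replicate block in the fit left 2 higher and 8 lower factors in share and 7 higher and 1 lower per ERCC read, *Zfp42* at -2.25 and -1.51, and changed the call of *Dppa3* at 20 min only (-0.75, adjusted p = 0.0468). Depth limits *Dppa3* most.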
